A study of Physcomitrium patens with 6 samples.

Results

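The genes described here encode the photosystems and their light-harvesting antennae in the moss Physcomitrella patens. They were taken from 6 tag libraries of its gametophyte as every gene model whose Gene Ontology (GO) annotation named a photosystem or light harvesting, with 1 gene model that met the wording left out by the rule. They numbered 103 of the 19265 gene models with at least 1 value, or 95 of 18265 loci when splice variants of a locus were counted together. Plants regenerated from protoplasts and were sampled on 4 days to follow development from filaments to leafy shoots, and cells of 2 filament types were captured by laser on day 14. The groups were protonema, the filamentous stage, at day 3, at day 14 and at day 24 after protoplast isolation, leafy shoot tissue at day 30, and chloronemal and caulonemal cells cut from live protonemata of day 14. Chloronemata are the first filaments to form, and caulonemata are the longer, faster growing ones that follow them. The tissue label of days 3, 14 and 24 reads leafy shoot, whereas the growth description and the study's methods give protonema, which was followed. The labels name no mutant, agent or transgene, and all plants had passed through the protoplast stage.

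Each condition had 1 library, made from the RNA of 3 biological replicates pooled beforehand, and the captured libraries were made from less total RNA than the others. The spread between plants therefore cannot be read from these data, and every comparison below has no replicate check. A difference is called where either library of the comparison held over 100 tags of the gene, the scaled ratio was over 2-fold, and an exact binomial test of the tags passed the study's limits over all genes tested. That test compares libraries, not conditions, so no p-value is given. Intervals are at 95%, exact binomial for ratios and shares and exact Poisson for levels. They cover counting error only, and may be too narrow even for that, because PCR copies without molecular identifiers are not independent molecules.

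Photosystem II takes electrons from water and passes them on, and photosystem I lifts them again with a second input of light. Each photosystem has a core of subunits and is surrounded by antenna proteins that bind chlorophyll and hand over the absorbed energy. Some core subunits are encoded in the chloroplast genome, while the antenna proteins and many smaller subunits are encoded in the nucleus and made as polyadenylated transcripts, the kind that this method captures on oligo(dT) beads.

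By their GO terms and, where given, their protein names the genes fell into 7 groups. Antenna genes numbered 30, of which 6 were assigned to photosystem I, 4 to photosystem II and 20 to no stated photosystem. The homologues of LHCB2.1, an antenna protein of photosystem II, were placed there by name. Other genes with exactly their GO terms were left with no stated photosystem. There were 22 genes of photosystem I subunits and 33 of photosystem II subunits, including the oxygen-evolving proteins. A further 7 genes, taken by no other group, are labelled subunits with no stated photosystem. No term or name for a subunit was required of these 7. The last group held 11 genes of assembly, repair and regulation. A protein name was given for 19 of the 103, either from the Arabidopsis homologue or from the best database match, and the other 84 are called here by their identifiers and GO terms alone.

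Each gene model was counted by a 21-nt tag that starts at a CATG site, the cutting site of the restriction enzyme. For some genes the site listed was the first from the 3′ end of the gene model, and for others it lay further inside. For Pp1s71_77V6.1, for example, it was site 13 from that end at days 3, 14 and 24. Because a transcript yields 1 tag whatever its length, levels were not divided by length. Levels of genes counted at different sites are less surely comparable. Tags of the genes that the results turn on are printed 5′ to 3′ as deposited, with the CATG site in capitals. The first set shows the most abundant antenna gene of each library and the pairs that share a homologue or a database match.
Pp1s254_3V6.1, antenna: CATGtaaatgtcgatttgtca
Pp1s27_97V6.1, antenna: CATGgaggctcgattttttcg
Pp1s1_629V6.1, antenna: CATGtctcttgttcttgaatg
Pp1s13_200V6.1, LHCB2.1 homologue: CATGttcggtttcttcgtcca
Pp1s12_390V6.1, LHCB2.1 homologue: CATGctcggagctctggggtg
Pp1s11_39V6.2, PSBP-1 homologue: CATGgcgtgcgccgcagccgt
Pp1s135_79V6.1, PSBP-1 homologue, site 1: CATGaagaacgggttgttcaa
Pp1s135_79V6.1, PSBP-1 homologue, site 2: CATGatcaaatattgtcaata
Pp1s248_60V6.1, PsaO: CATGtccattcgttgtttata
Pp1s248_61V6.2, PsaO: CATGgcacgtgggattgttca

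The tags differ within each of these pairs, so that their members were counted apart. No listed tag was shared by gene models in any library. For 8 of the 103 genes (7.77%), however, a listed tag lay 1 base from a listed tag of another gene of the set. Over all gene models, 2.73% had a tag 1 base from that of another gene model. The authors accepted tags with up to 1 mismatch and discarded those that matched several genes, and the sources used here do not say how they treated a tag that matched 1 gene perfectly and another with a mismatch. Counts of these 8 genes are therefore uncertain in their split. They form 4 pairs, shown because they include abundant antenna genes, with positions counted from 1 at the C of the CATG.
Pp1s13_200V6.1, LHCB2.1 homologue: CATGttcggtttcttcgtcca
Pp1s19_13V6.1, antenna, site 2: CATGttcggtttcttcgtgca
Pp1s186_25V6.2, antenna, site 4: CATGggcatacgccaccaact
Pp1s51_305V6.1, antenna: CATGggcgtacgccaccaact
Pp1s54_165V6.1, photosystem I subunit: CATGtgcctgacgatctacgg
Pp1s15_408V6.1, PSAL: CATGtgcttgacgatctacgg
Pp1s1_788V6.1, photosystem I subunit: CATGaggtcgggacccaacct
Pp1s77_69V6.1, photosystem I subunit: CATGaggtcgggacctaacct

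From the first to the second gene of each pair the substitutions were C19G, A8G, C8T and C16T. The site number counts CATG sites from the 3′ end of the gene model. It was the same in every library for 75 of the 103 genes and differed between libraries for 28. PSBR, a small subunit that helps to hold the oxygen-evolving proteins on photosystem II in Arabidopsis, is shown as an example.
Pp1s15_409V6.1, PSBR, site 4, days 3, 14 and 24: CATGgagaggtcctcattttc
Pp1s15_409V6.1, PSBR, site 3, day 30 and captured cells: CATGgcctgttccctggttcc

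Of the genes listed in all 6 libraries, 7 had no site in common between the libraries of days 3, 14 and 24 and those of day 30 and the captured cells. The same count was not made over all gene models, so whether it is high or low for the set was not tested. Over the genome, day 30 shared its sites with the captured libraries more often than with day 24. Of all gene models listed in both, 90.2% had the same site at day 30 and in chloronema and 90.3% at day 30 and in caulonema, but 77.2% at day 24 and day 30. Days 3 and 14 shared 85.4%. Day 24 stood apart from both sides, with 76.0% shared with day 3, 74.5% with day 14, 77.4% with chloronema and 77.9% with caulonema. For the genes of the set the shares of day 30 with chloronema, caulonema and day 24 were 90.3%, 89.4% and 84.9%. The rank correlation of levels over these genes was 0.84 between day 30 and chloronema, over 93 genes, and 0.71 between day 24 and day 30, also over 93. Day 30 also gave 0.83 with caulonema, 0.80 with day 3 and 0.78 with day 14. A value above that with day 24 was therefore not particular to the captured libraries. These points share libraries and are given as a description. The library of day 30 thus stood nearer to the captured libraries than to that of day 24 in its choice of sites, and a difference between libraries cannot be told apart from one between stages.

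Gene tags summed to between 1733082 and 7027742 per library, with the highest totals on the first 3 days and the lowest in the captured cells and at day 30. Library sizes were adjusted with TMM factors (trimmed mean of M-values, from edgeR), and a level below is the TMM-normalized number of tags per 1000000 gene tags. Of the 103 genes, 91 were listed in all 6 libraries and 5 in 1 library only, and the lowest count listed anywhere was 2 tags. Over 100 tags in at least 1 library were held by 89, and 14 stayed under that limit throughout. All results rest on whole plants or bulk cell captures, in which fewer cells of a type and less RNA per cell cannot be told apart.

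The photosystem and antenna genes took a small part of the transcripts at day 3 and a large one at day 14. Together they held 2.19% of the gene tags at day 3 (interval 2.18 to 2.21), 8.49% at day 14 (8.47 to 8.51), 4.53% at day 24 (4.51 to 4.54) and 6.75% at day 30 (6.72 to 6.78). Chloronema had 8.26% (8.22 to 8.30) and caulonema 7.34% (7.30 to 7.37). No 2 of these intervals overlapped. The antenna genes with no stated photosystem were the largest group in every library, with 0.980%, 3.38%, 1.84%, 3.18%, 3.04% and 3.71% of the gene tags in the same order. Photosystem I subunits held 2.33% in chloronema and 1.31% in caulonema, whereas photosystem II subunits held 1.11% and 1.04%. Genes of assembly, repair and regulation never exceeded 0.0421%. With the authors' own library totals as divisor, which also count tags outside the genes, chloronema had 4.36% and caulonema 5.51%, so that the order of these 2 libraries depends on the divisor.

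**Figure D1:**
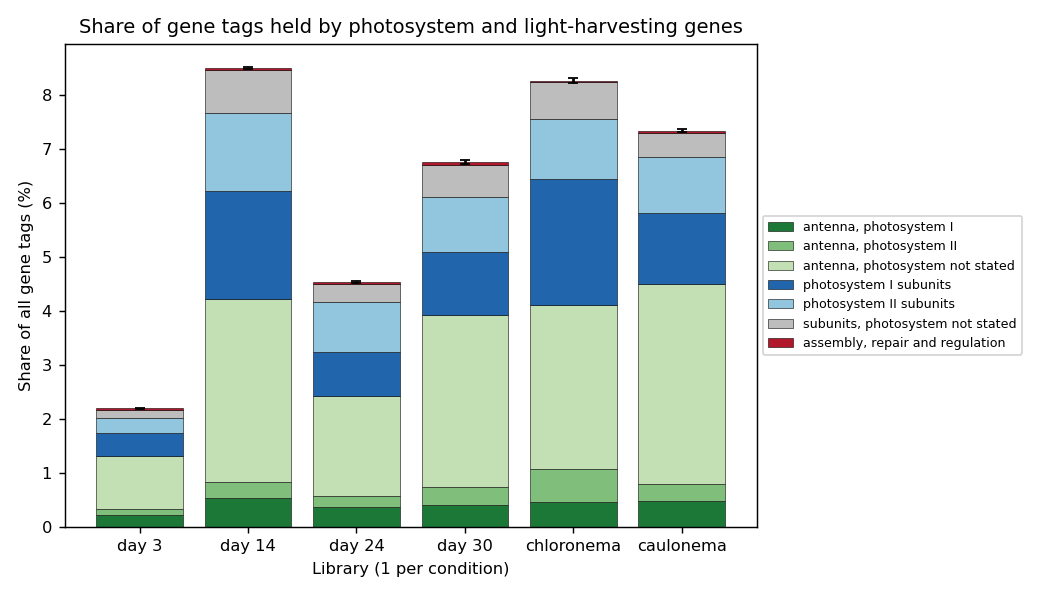
Share of all gene tags (percent, vertical axis from 0) held by the 7 groups of photosystem and light-harvesting genes in each of the 6 libraries; the error bar on each stack is the exact binomial 95% interval of the total. The stack is lowest at day 3 (2.19%) and highest at day 14 (8.49%), and antenna genes with no stated photosystem form its largest part throughout.

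A few antenna genes led the set, and which one led changed with the library. Pp1s254_3V6.1 was first at days 3, 14 and 24, with 10.8%, 9.95% and 15.9% of the tags of the set, and ranked 33, 5 and 5 among all genes. Pp1s27_97V6.1 was first at day 30 with 16.1% and in caulonema with 9.22%, at ranks 4 and 7. Pp1s1_629V6.1 was first in chloronema with 9.73%, at rank 6. The 5 most abundant genes of the set held between 30.5% and 44.5% of its tags. Among the 100 most abundant genes of a library, 4 belonged to the set at day 3, 17 at day 14, 10 at day 24, 19 at day 30, 21 in chloronema and 18 in caulonema.

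The profiles had a common shape with individual departures. Of the 89 genes with over 100 tags, 50 had their highest level at day 14, which is 56.2% against 16.5% of the 9003 genes that passed the same limit. Chloronema was highest for 17, day 30 for 12, caulonema for 4, and days 3 and 24 for 3 each. Over the 4 days alone, 64 of the 89 (71.9%) peaked at day 14 and 49 (55.1%) were lowest at day 3, and none was lowest at day 14. Of the 9003 genes, 26.2% peaked at day 14, 19.3% were lowest at day 3 and 18.9% were lowest at day 14. For the 88 of them listed in all 6 libraries, the highest level was a median of 7.50-fold above the lowest. The range ran from 2.70-fold for Pp1s31_50V6.1, a gene of the assembly group, to 189-fold for Pp1s463_11V6.1, an antenna gene whose lowest value was 2 tags.

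**Figure D2:**
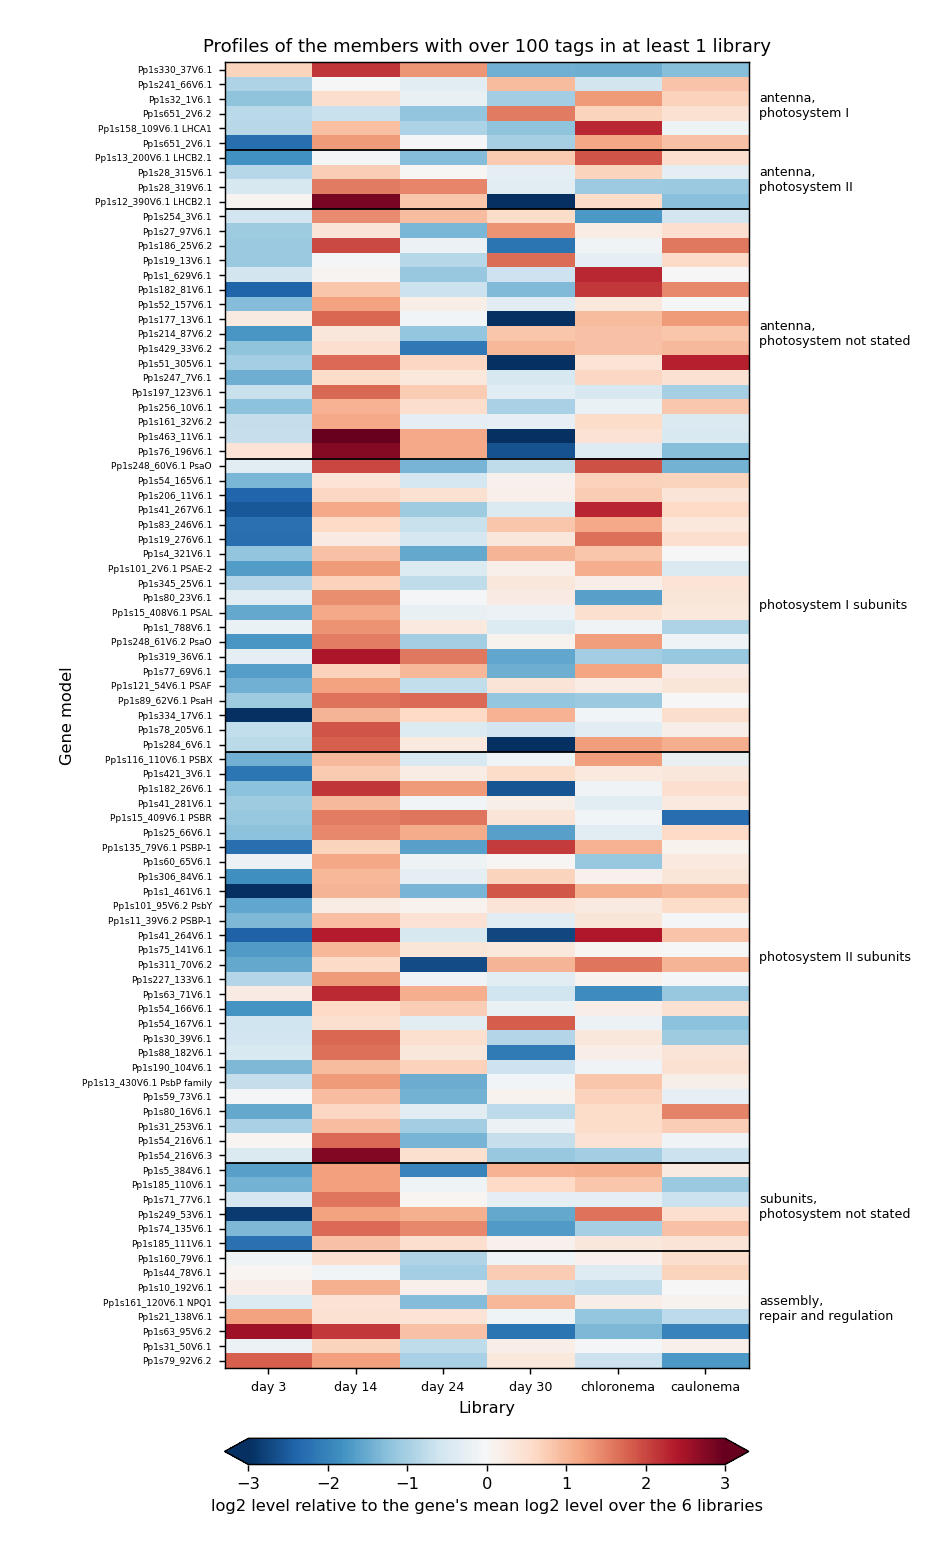
Profiles of the 89 genes with over 100 tags in at least 1 library, in rows by group and mean level, with the 6 libraries in columns; colour gives the log2 level relative to the mean log2 level of the gene over the libraries, and a gene not listed in a library is set at the limit of 3 tags. The day 14 column is above the mean for most genes outside the assembly group, and the day 3 column is below it.

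From day 3 to day 14 nearly every tested gene of the antenna and subunit groups rose. Of the 89 tested, 77 were called higher and none lower, against 20.1% called higher and 20.3% called lower among the 7710 genes tested in this comparison. The median was 2.27 on the log2 scale, a 4.81-fold rise, beside 0.07 over all genes tested. With no limit on tags, 80 genes of the set were called higher and again none lower. The median was then 2.15, beside -0.03 over all genes tested, and no share of all genes called is given for that setting. All 20 tested photosystem I subunit genes were called higher, with a median log2 ratio of 2.64, and so were 27 of 28 photosystem II subunit genes, with 2.27. Among antenna genes the counts were 4 of 6 for photosystem I, 4 of 4 for photosystem II and 16 of 17 with no stated photosystem, with medians of 1.59, 1.89 and 2.08. The genes of assembly, repair and regulation did not follow. None of the 8 tested was called, and their log2 ratios ran from -0.76 to 0.87.

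**Figure D3:**
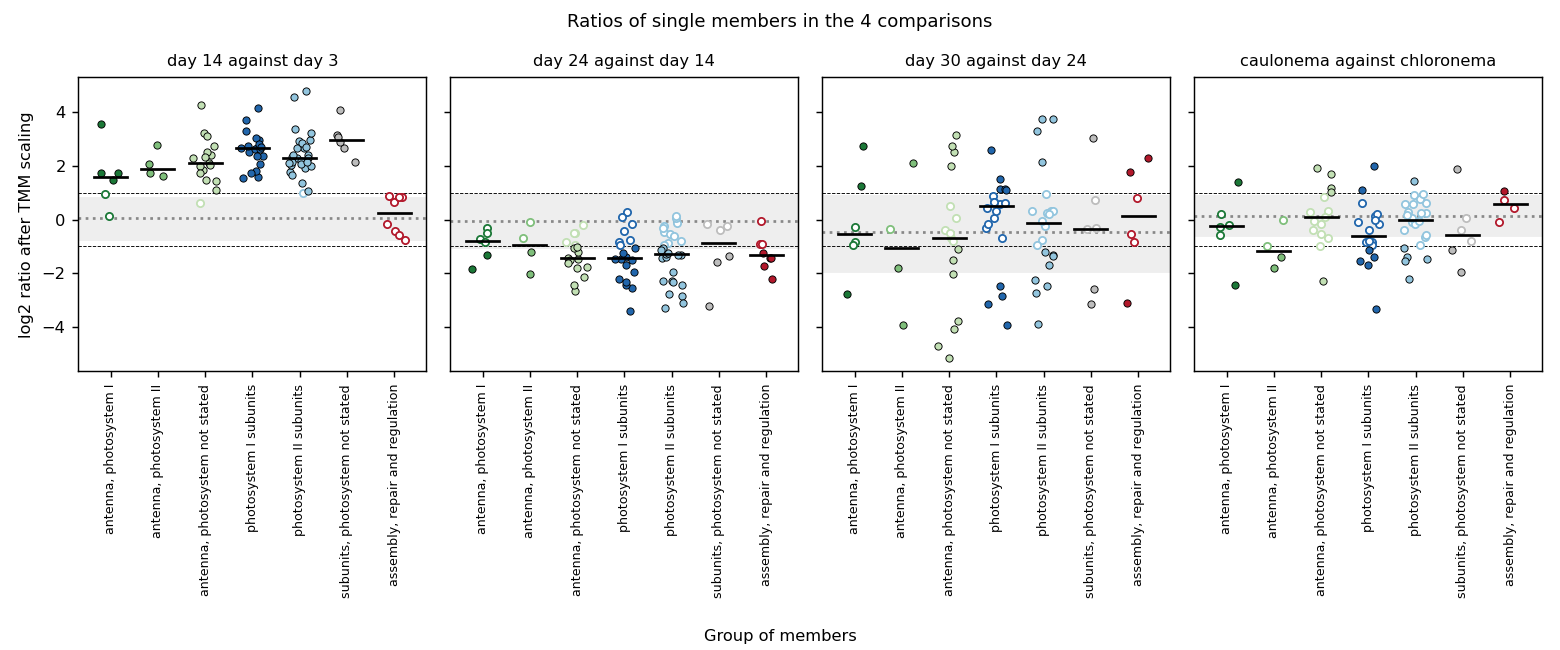
Log2 ratio of each tested gene of the set in the 4 comparisons, by group; filled points were called, open points were not, black bars are group medians, dashed lines mark 2-fold, and the grey band and dotted line give the quartiles and the median of all genes tested. In the comparison of day 14 with day 3 the medians of all groups but assembly lie above the band, and in that of day 30 with day 24 the points spread from -5.14 to 3.73.

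The 2 steepest rises to day 14, ranked by the lower bound of the interval, were in photosystem II. Pp1s41_264V6.1 went from 136 tags at day 3 to 3841 at day 14, a 27.6-fold difference (interval 23.2 to 33). It had levels of 23.8, 657, 91.1, 19.1, 675 and 232 from day 3 to day 30 and then in chloronema and caulonema, which makes it high at day 14 and in chloronema and low at days 3 and 30. Pp1s1_461V6.1 rose 23.4-fold (19.4 to 28.6), from 111 to 2664 tags. Its levels of 19.4, 456, 85.2, 820.5, 469.9 and 440.0 in the same order peaked at day 30, where the previous gene was at its lowest. The next, Pp1s249_53V6.1, from the group labelled subunits with no stated photosystem, rose 16.9-fold (14.8 to 19.3). Its levels were 42.6, 718, 647, 108, 961 and 441, of which those of days 3 and 14 come from another site than the rest.

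The following 4 subunits of photosystem I, given because they have a protein name and with their values known, rose between 6.27-fold and 7.79-fold. PsaO, also named and described below, lay outside this range. Its model Pp1s248_60V6.1 rose 5.1-fold (4.98 to 5.22) and Pp1s248_61V6.2 rose 9.83-fold (8.99 to 10.8). PSAE-2, on the stromal side where ferredoxin docks in Arabidopsis and other plants, rose 7.79-fold (7.32 to 8.29). PSAF, which takes part in docking plastocyanin, rose 6.27-fold (5.6 to 7.03). PsaH and PSAL lie together where the mobile antenna attaches to photosystem I in Arabidopsis, and they rose 6.43-fold (5.76 to 7.2) and 6.35-fold (5.94 to 6.8). The intervals of these 3 genes, PSAF, PsaH and PSAL, overlapped, and the PSAL tag is 1 base from that of Pp1s54_165V6.1, which rose 3.46-fold (3.32 to 3.61). On the side of photosystem II, PSBR rose 6.32-fold (5.96 to 6.71) and PSBX, a small membrane subunit, 5.3-fold (5.11 to 5.51). PsbY, another small subunit, rose 3.43-fold (3.12 to 3.77).

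Outside the assembly group, 3 antenna genes and 1 photosystem II subunit gene were not called at this step. Pp1s1_629V6.1 had levels of 1126, 1741, 756, 1067, 7941 and 1630.0 and a ratio of 1.55 (1.5 to 1.6) from day 3 to day 14. Pp1s241_66V6.1, of photosystem I, had 532, 1019.6, 811, 1935, 687 and 1814 and a ratio of 1.92 (1.83 to 2). Both had higher levels in another library, the first in chloronema and the second at day 30 and in caulonema. The splice variants of the locus Pp1s651_2, also of photosystem I, went apart. Variant Pp1s651_2V6.1, counted at its eighth CATG site, rose 11.6-fold (9.25 to 14.8), while Pp1s651_2V6.2, counted at its first, had a ratio of 1.09 (1.01 to 1.18); that pair was chosen after its values were seen.

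Genes of related processes were taken by their GO terms, without the genes of the set, and are given for comparison. Among other thylakoid genes 122 of 203 tested were called higher at day 14 and 12 lower, with a median log2 ratio of 1.28. For carbon fixation and photorespiration 21 of 32 were higher and 4 lower, with 1.53, and for chlorophyll and porphyrin synthesis 21 of 52 were higher and 1 lower, with 0.91.

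From day 14 to day 24, when buds form on the filaments, the set fell. Of 89 tested genes, 54 were called lower and none higher, and 35 were not called. Over all 7913 genes tested, 26.4% were called lower and 23.2% higher. The median log2 ratio was -1.25, beside -0.06 for all genes tested, and 85 of the 89 ratios were below 0. All groups had a negative median, from -0.78 for the antenna of photosystem I to -1.42 for antenna genes with no stated photosystem. Assembly, repair and regulation fell here with the rest, with 5 of 8 called lower and a median of -1.32. Among them was NPQ1, the homologue of the enzyme that makes zeaxanthin for the dissipation of excess light in Arabidopsis, which had levels of 34.3, 61.4, 18.5, 90.4, 51.9 and 48.8 and was 3.32-fold lower (2.67 to 4.15) at day 24 than at day 14, on tags of different sites.

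The largest fall was that of PsaO, a small subunit of photosystem I beside the antenna. Pp1s248_60V6.1, the more abundant PsaO model, had levels of 1489, 7597, 723, 1117, 7067 and 705, high at day 14 and in chloronema and about equally low at day 24 and in caulonema. It was 10.5-fold lower (10.2 to 10.8) at day 24, on 4217 tags against 44406. Pp1s248_61V6.2, from the locus of the next number on the same scaffold, had 93.9, 923, 157, 344, 754 and 289.9, likewise high at day 14 and in chloronema, but lowest at day 3. It was 5.89-fold lower (5.49 to 6.32) at day 24. A further variant of each locus was listed with at most 17 tags in any library. Pp1s5_384V6.1, from the group labelled subunits with no stated photosystem, fell 9.16-fold (8.77 to 9.57). Pp1s311_70V6.2, of photosystem II, fell 9.68-fold (7.78 to 12.2).

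Some abundant genes were near their day 14 level at day 24 and were not called. PSBR had 1425 and 1498, a ratio of 1.05 (1.02 to 1.08), and PsaH had 407.9 and 430.3, a ratio of 1.05 (0.997 to 1.12). Pp1s206_11V6.1, of photosystem I, had 1526 and 1363, and Pp1s254_3V6.1, the leading antenna gene, 10157 and 7228. PSBR and PSAL carry consecutive gene numbers on 1 scaffold and nevertheless differed here, since PSAL was 2.59-fold lower (2.47 to 2.71) at day 24. When libraries were scaled by their gene tag totals instead, Pp1s206_11V6.1 and 4 other named genes that were not called had log2 ratios just above 0. Other thylakoid genes fell as well, 55.3% of 197 being called lower and 4.06% higher, with a median log2 ratio of -1.10. Carbon fixation had 19 of 33 lower and 4 higher, and chlorophyll and porphyrin synthesis 24 of 53 lower and 4 higher.

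At day 30, in leafy shoots, the genes of the set were called in both directions, as genes were in general. Of 81 tested genes, 19 were called higher and 25 lower than at day 24, beside 23.2% and 39.3% of all 7267 genes tested, which is close to the background in the first direction and under it in the second. The median log2 ratio was -0.27 and that of all genes -0.48. Which of these medians was the higher depended on the limit on tags. They were -0.23 and -0.25 with over 100 tags in the compared libraries together, and -0.10 and -0.01 with no limit. The ratios ran from -5.14 to 3.73, with quartiles of -1.51 and 0.85, beside quartiles of -1.95 and 0.88 over all genes tested, so that the quartiles of the set lay within those of all genes. Every group had called genes in both directions, and photosystem I subunits had the highest median, 0.50, with 5 higher and 4 lower of 20. When only genes counted at the same site in both libraries were kept, 16 were higher and 21 lower, so that most of these calls did not rest on a change of site.

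Antenna genes were found on both sides. There were 15 genes with exactly the GO terms of the LHCB2.1 homologues, a likeness of annotation that does not make them the same protein, and 14 of them were tested. At day 14 and at day 24 they moved together, with 13 of 14 called higher and then 11 of 14 lower, but at day 30 against day 24, 3 were higher and 7 lower, from -5.14 to 2.71 on the log2 scale. The lowest of these ratios was that of Pp1s463_11V6.1, on 2 tags at day 30, and the next was -4.68. The total held by the 15 was nevertheless 1.68% of gene tags at day 24 and 3.00% at day 30. At day 30, in a library with fewer tags, 10 of the 15 had over 100 tags, against 14 at days 14 and 24.

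Pp1s27_97V6.1 made up 36.1% of the tags of these 15 genes at day 30. It had levels of 1900.2, 5160.0, 1537, 10066, 4608 and 5630.1 and was 6.55-fold higher (6.39 to 6.71) at day 30 than at day 24. Pp1s19_13V6.1 had 1015, 2144, 1213, 6941, 1816 and 3234, and rose 5.72-fold (5.57 to 5.88), but its tag changed from the second to the first site between these libraries. Pp1s51_305V6.1 went the other way, from 3463 tags to 57, which is 25.6-fold lower (19.7 to 33.9). Its levels were 189, 1244, 594, 23.2, 509.8 and 1933, lowest at day 30 and highest in caulonema. Pp1s177_13V6.1 had 898, 2469.7, 701, 42.3, 1443 and 1818 and fell 16.6-fold (13.6 to 20.3) at day 30. Pp1s186_25V6.2, with 815, 6974, 1577, 388, 1654 and 5296, fell 4.06-fold (3.8 to 4.35), and its level at day 14 came from another site. These 3 genes had levels of 509.8 or more in both captured libraries.

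**Figure D4:**
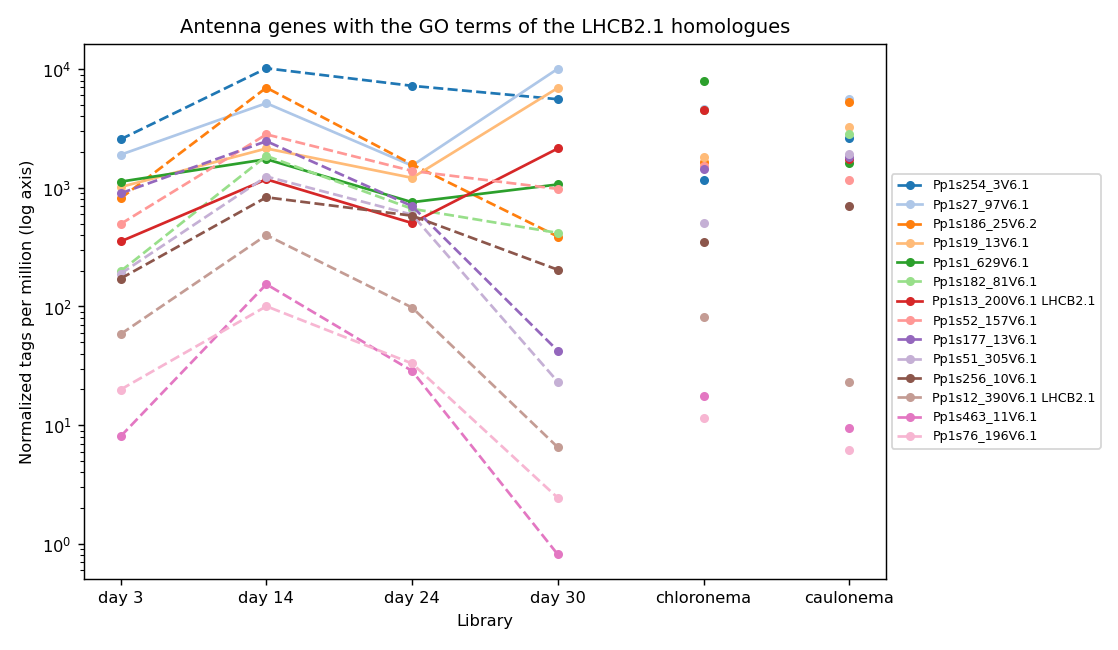
Level (TMM-normalized tags per 1000000, log axis) of the 14 antenna genes with the GO terms of the LHCB2.1 homologues and over 100 tags in some library, with lines through the 4 days and separate points for the captured cells; solid lines mark genes higher at day 30 than at day 24 and dashed lines those lower. All 14 genes are higher at day 14 than at day 3, and their levels spread widely at day 30, from 0.814 for Pp1s463_11V6.1 to 10066 for Pp1s27_97V6.1.

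Genes with the same Arabidopsis homologue rose together to day 14 and were both lower at day 24, but parted from day 24 to day 30. LHCB2.1, a major antenna protein of photosystem II, had 2 homologues. Pp1s13_200V6.1 had levels of 353, 1178, 505, 2144, 4536 and 1747, and Pp1s12_390V6.1 had 58.5, 399, 97.9, 6.51, 81 and 23.1. Each rose to day 14 and fell to day 24. At day 30 the first was 4.25-fold higher (4.06 to 4.45) than at day 24, and the second was 15-fold lower (9.18 to 26.5), on 16 tags. The first tag is the one that lies 1 base from that of Pp1s19_13V6.1 at days 3, 14 and 24.

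PSBP-1, a protein of the oxygen-evolving complex, also had 2 homologues. Pp1s11_39V6.2 had 103, 495, 357, 211, 339 and 256, and Pp1s135_79V6.1 had 66.7, 502, 102, 1355, 651 and 342. The pair was level at day 14, and at day 30 the second was the more abundant. It was 13.3-fold higher (12.2 to 14.5) at day 30 than at day 24, and its partner was 1.69-fold lower (1.53 to 1.86) and not called. The tag of Pp1s135_79V6.1 came from its first site at days 3, 14 and 30 and from its second at day 24 and in both captured libraries, so that this ratio, and the 4.92-fold fall (4.5 to 5.38) from day 14 to day 24, compare different tags. Between days 14 and 30, where the site was the same, the levels were 502 and 1355.

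**Figure D5:**
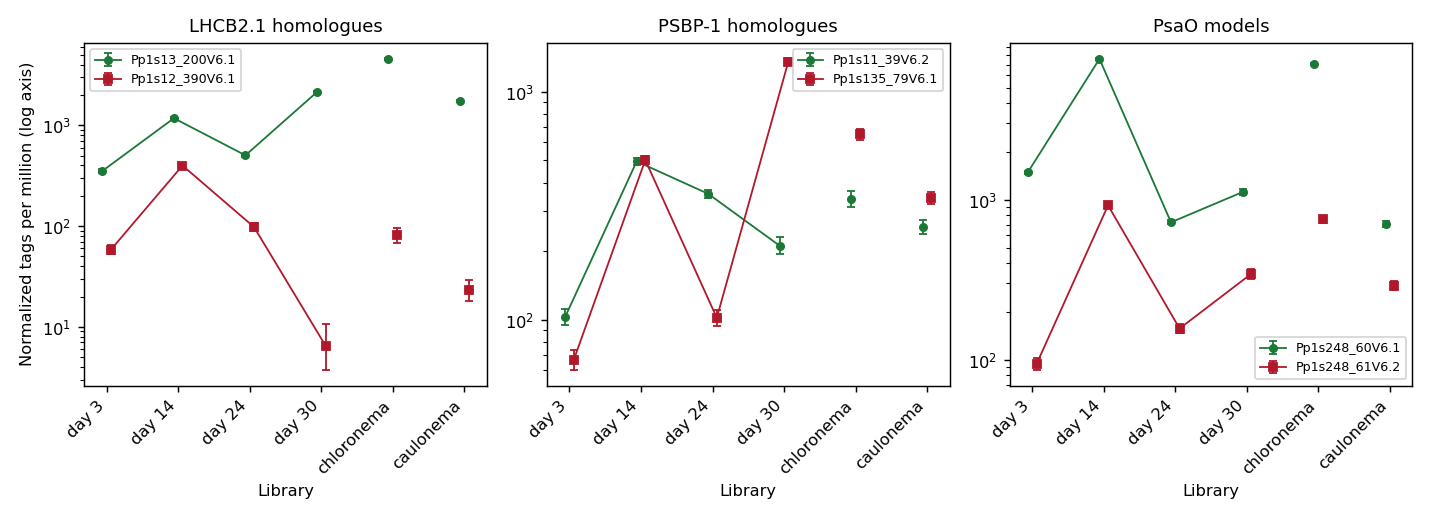
Levels (TMM-normalized tags per 1000000, log axis) of the LHCB2.1 homologues, the PSBP-1 homologues and the more abundant PsaO models in the 6 libraries, with exact Poisson 95% intervals and lines through the 4 days. The LHCB2.1 and PSBP-1 pairs diverge from day 24 to day 30, whereas Pp1s248_60V6.1 is the higher PsaO model in every library.

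Photosystem II subunit genes were also found on both sides at day 30. Pp1s311_70V6.2, with 34.3, 149, 15.4, 203, 302 and 200.5, rose 13.2-fold (10.5 to 16.7), and Pp1s1_461V6.1 rose 9.63-fold (8.72 to 10.6). Against them, Pp1s182_26V6.1, with 238, 2468, 1363, 92, 522 and 786, fell 14.8-fold (13 to 17), with the levels of days 3 and 14 from another site. Pp1s330_37V6.1, the most abundant antenna gene of photosystem I, fell 6.83-fold (6.34 to 7.37), from 2046 to 299.5, and was at 295 and 338 in the captured cells. PsaH fell 7.24-fold (6.13 to 8.62), while PSAF rose 2.19-fold (1.94 to 2.46) and PSAE-2 had a ratio of 1.49 (1.4 to 1.58). PSBR fell 2.32-fold (2.2 to 2.45), on tags of different sites. In the assembly group NPQ1 rose 4.88-fold (3.86 to 6.2), also with another site, and Pp1s44_78V6.1 rose 3.41-fold (2.79 to 4.18).

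Among other thylakoid genes 39 of 171 were called higher and 58 lower at day 30. The counts were 11 and 8 of 32 for carbon fixation and photorespiration, and 5 and 16 of 44 for chlorophyll and porphyrin synthesis. Set against day 14, the other stage with a high total, the 89 genes had a median log2 ratio of -1.14 at day 30, beside -0.62 over the genes tested there. Of the 89, 52 were more than 2-fold lower and 4 more than 2-fold higher. Of all 7178 genes tested there, 3053 were more than 2-fold lower and 1603 more than 2-fold higher.

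Caulonema and chloronema differed less than the days did. Of 77 tested genes, 10 were called higher in caulonema and 16 lower, beside 21.8% and 16.5% of all 4292 genes tested, and 51 were not called. The median log2 ratio of caulonema to chloronema was -0.09, with 0.13 for all genes tested. Its sign depends on the scaling. It was 0.15 when gene tag totals set the scale and 0.66 when the deposited TPM did, which moved the median of all genes to 0.38 and 0.89. With the deposited TPM, 24 genes of the set were called higher and 6 lower. The shares of all genes above are for TMM scaling, and none is given for the TPM scale. A change of scaling shifts all genes alike, so that the set stayed below the median of all genes.

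The genes that were lower in caulonema were led by PsaO. Pp1s248_60V6.1 was 10-fold lower (9.57 to 10.5), on 2167 tags against 12392, and Pp1s248_61V6.2 was 2.6-fold lower (2.39 to 2.84). LHCA1, an antenna protein of photosystem I, had levels of 169, 555, 155, 129, 1431 and 267, highest in chloronema, and was 5.35-fold lower (4.94 to 5.8) in caulonema. Pp1s1_629V6.1, the leading antenna gene of chloronema, was 4.87-fold lower (4.72 to 5.03). PSBR was 4.63-fold lower (4.06 to 5.29), and the LHCB2.1 homologues Pp1s13_200V6.1 and Pp1s12_390V6.1 were lower by 2.6-fold (2.51 to 2.69) and 3.5-fold (2.62 to 4.73). On the deposited TPM scale PsaO Pp1s248_60V6.1, LHCA1 and Pp1s1_629V6.1 were still called lower, whereas Pp1s13_200V6.1 and Pp1s248_61V6.2 were lower by under 2-fold.

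Higher in caulonema were 4 antenna genes with the GO terms of LHCB2.1. Pp1s51_305V6.1 was 3.79-fold higher (3.53 to 4.07), Pp1s186_25V6.2 3.2-fold (3.08 to 3.33), Pp1s254_3V6.1 2.25-fold (2.14 to 2.37) and Pp1s256_10V6.1 2.01-fold (1.83 to 2.2). The tags of Pp1s51_305V6.1 and Pp1s186_25V6.2 differ at 1 base. Pp1s241_66V6.1 was 2.64-fold higher (2.48 to 2.81). In the subunit groups, Pp1s80_23V6.1, of photosystem I, with 389.8, 1296, 472, 586, 160.2 and 636, was 3.97-fold higher (3.5 to 4.51). It was lowest of all in chloronema, with the levels of days 3 and 14 from another site. Pp1s74_135V6.1, with 90.2, 750.4, 629.5, 70.8, 116 and 425, was 3.67-fold higher (3.16 to 4.27), and PsaH 2.16-fold (1.74 to 2.7). These genes were higher in caulonema under every scaling tried. Pp1s256_10V6.1, however, was higher by under 2-fold with DESeq2 size factors and with TMM factors from the 2 compared libraries alone.

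By group, photosystem I subunits had 2 genes higher and 5 lower of 18, with a median log2 ratio of -0.60, and photosystem II subunits 1 higher and 5 lower of 24, with -0.01. The antenna genes with no stated photosystem had 4 higher and 1 lower of 15, with 0.08. Other thylakoid genes had 16 higher and 32 lower of 137, carbon fixation and photorespiration 5 and 8 of 29, and chlorophyll and porphyrin synthesis 4 and 9 of 34. No marker list for either filament type that was independent of photosynthesis was at hand, so the 2 captured identities were not checked against markers.

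The captured cells came from plants of the age of the day 14 library and were set beside it. Over the 89 genes the median log2 ratio to day 14 was -0.55 in chloronema and -0.83 in caulonema, beside -0.54 and -0.43 over all genes tested. More than 2-fold higher than at day 14 were 8 genes in chloronema and 1 in caulonema, and more than 2-fold lower were 34 and 39. Among all genes tested, 818 of 6553 were more than 2-fold higher in chloronema than at day 14 and 2534 lower. In caulonema the all-gene counts were 1066 higher and 2410 lower of 6917. These libraries differ in how the cells were collected and in the amount of RNA, and their part in these differences was not tested.

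The 14 genes that never passed 100 tags included splice variants of genes described above. The one with the highest count was Pp1s212_61V6.1, of photosystem II, with 8, 69, 69, 4, 14 and 25 tags. Pp1s61_321V6.1, also of photosystem II, was listed in chloronema alone, with 13 tags, and Pp1s198_100V6.2, of the assembly group, had 6, 5, 35, 49, 2 and 14. These 3 were chosen after their values were seen. Tags seen once had been removed and no count below 2 was listed, so that a gene not listed in a library cannot be called absent from it.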

How the data were processed

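For the deposited counts, the authors discarded tags seen once, of the wrong size, with ambiguous bases or of adaptor alone, and matched the rest, 21 nt long, to Phytozome gene models with at most 1 mismatch. The study's methods name blastn and the submitters' processing notes Bowtie, without versions. To obtain the deposited TPM, the authors divided these counts by a library total of their own, and a further deposited column gives the number of the CATG site.

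Membership came from the GO terms, and the groups from GO terms and protein names. The general photosystem term does not say which photosystem is meant, so groups with no stated photosystem were added after the annotation had been seen. The genes, lists and groups were chosen with earlier results of these data known. Tag counts (gene tag totals 6188001, 7027742, 5857712 and 2281272 from day 3 to day 30, 1733082 in chloronema and 2557991 in caulonema) were scaled by edgeR 4.0.16 TMM factors. For each gene the tags in a pair of libraries were set against the library sizes in a two-sided binomial test, exact (scipy 1.17.1), with Benjamini-Hochberg adjustment over all genes tested, with limits of 0.01 on p and 0.001 on the adjusted p. edgeR's quasi-likelihood test could not be fitted with 1 library per condition. The test was tried on simulated data. Alternatives were other scalings (gene tag totals, DESeq2 1.42.0 size factors, TPM and, added after the data had been seen, TMM from the compared libraries alone), other tag limits, a 4-fold limit, the interval bound and the same site in both libraries. Genes named were, per group, the 3 with the highest mean level; per comparison, the 3 highest and 3 lowest called ratios and up to 5 against the majority; and families sharing a homologue or match, 41 in all. Subunits with a protein name and other genes given outside this rule were chosen after their values were seen. No gene model matched the reference gene table, so no coordinates are given. Python 3.11.15, pandas 2.3.3, numpy 2.4.6, matplotlib 3.10.9 and R 4.3.3 were used.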

Additional observations from a re-analysis of the deposited data

How the results depend on the processing

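No paired analysis was possible because each condition had 1 library. For the same reason no library could be left out. Of the counts of called genes of the set under the alternatives, 65 were within 1.5 times of the value given above and 7 were not. Of its median log2 ratios, 26 kept their sign and 2 did not. All 12 alternative shares lay outside the narrow counting interval of the share given above. Gene tag totals moved the median of all genes to -0.08 for day 14 against day 3, to 0.20 in the next comparison and to -0.37 in that of day 30, and DESeq2 size factors moved the last to -0.33. Other tag limits moved the median of all genes at day 30 further, to -0.25 with the limit on the compared libraries together and to -0.01 with no limit. For single named genes, 825 kept direction and call, 60 lost a call, 10 gained one and 17 changed sign.

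With no limit on tags, 2 genes were called higher at day 24 against day 14, Pp1s198_100V6.1 and Pp1s198_100V6.2. At a 4-fold limit, 19 were lower at day 24, 12 were higher at day 30, and in caulonema against chloronema 0 were higher and 4 lower. On the deposited TPM scale, 24 were higher and 6 lower in caulonema. Shares of all genes called are not given for these alternatives. The median log2 ratio of the set in caulonema against chloronema became 0.15 with gene tag totals and 0.66 with TPM. The shares with the totals behind the deposited TPM as divisor were 1.81%, 7.26%, 3.30% and 4.35% from day 3 to day 30, 4.36% in chloronema and 5.51% in caulonema. Without the most abundant gene of the set they were 1.96%, 7.65%, 3.81%, 6.15%, 8.14% and 7.02%.

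Genes that changed sign had no call in the comparison concerned. With gene tag totals, log2 ratios of day 24 against day 14 became 0.17 for Pp1s28_319V6.1, 0.10 for Pp1s206_11V6.1, 0.11 for Pp1s249_53V6.1, 0.0060 for Pp1s74_135V6.1 and 0.13 for PsbY Pp1s101_95V6.2. In caulonema against chloronema they became 0.24 for Pp1s28_319V6.1, 0.22 for Pp1s54_165V6.1 and 0.15 for Pp1s1_461V6.1, and with DESeq2 size factors -0.043 for Pp1s421_3V6.1. On the TPM scale the same comparison gave 0.19 for Pp1s32_1V6.1, 0.75 for Pp1s28_319V6.1, 0.73 for Pp1s54_165V6.1, 0.38 for Pp1s206_11V6.1 and for Pp1s71_77V6.1, 0.66 for Pp1s1_461V6.1, 0.17 for Pp1s311_70V6.2 and 0.35 for PSBP-1 Pp1s11_39V6.2. A scaling factor shifts every gene of a comparison by the same amount. Depth limits low genes at day 30 and in the captured cells, where 100 tags is a larger share of the library.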
